A study of Mus musculus with 7 samples.

Results

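Solute carriers are membrane proteins that move small molecules, and their gene symbols, Slc with a family number or Slco, group them by sequence and substrate. On the mouse U74Av2 array, 151 genes had such a symbol on a probe set with no other gene name, out of 8251 named genes, and each gene was read by its probe set with the highest mean. Slc10a1, Slco1a1, Slc2a2, Slc37a4 and Slc40a1 were left out, and 1 probe set that carries a pair of Slc22 names was not used. The 151 genes fell into 39 numbered families and Slco. The symbol also takes in Slc9a3r1, Slc9a3r2 and Slc4a1ap, which encode proteins that bind carriers and are not carriers themselves.

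The data are liver RNA of 7 female mice, 1 array each, all of 1 group. The source names give phenotypically normal animals of genotype +/+ or +/df, fed standard pellets ad libitum, whereas the description of the same samples names the Ames dwarf genotype df/df and an age at death of 24 to 26 months. The group was kept as the source names give it, and the conflict was not resolved. With no second group there is no contrast, so each gene has a level and a spread between animals, and the precision is limited by the number of arrays. The labels call each sample a mouse but identify no animal, so the p-values measure the spread between these 7 samples, which may be technical in part.

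Hepatocytes take up amino acids, fatty acids, bile acids, nucleosides and metals through carriers in the sinusoidal membrane, and they pass intermediates of the urea cycle, lipid synthesis and respiration across the inner mitochondrial membrane through the Slc25 family. Nucleotide sugars enter the Golgi and endoplasmic reticulum through the Slc35 family. Other carriers belong to other tissues. Slc2a4 takes up glucose in muscle and fat under insulin, and Slc4a1 exchanges anions in red cells. Some members of the Slc6 family and the Slc18 family clear or package neurotransmitters.

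Signals below are intensities scaled to a common trimmed mean of 500.4 per array, given as mean ± SD with n = 7 where an error is shown. A gene counted as tested when its mean reached 200.1, and values under the floor of 50.04 were treated as having no level. The 7 arrays resembled each other in their share of probe sets under the floor, 27.6% to 29.7%. Hepatocyte markers were bright on every array, with a summed signal of 161636 to 196200 over 8 of 8 genes, and no marker of cholangiocytes (4 of 6 listed genes on the array) or kidney tubule (6 of 6) passed the filter. Of the 151 genes, 79 were tested (52.3%, against 54.3% of all named genes), and 20 lay below the floor on all 7 arrays (13.2%, against 12.5%). The median signal was 252 over the 151 genes and 243 over all named genes, and 19 solute carrier genes were in the top 10% of signals. A signal depends on the probes as well as on the transcript, so the order of signals is not an order of transcript amounts, and in whole tissue fewer cells of a type and less RNA per cell cannot be told apart.

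Transport classes differed in how many of their carriers were bright. Of 20 genes of the mitochondrial carrier family (Slc25), 14 were tested and 8 were in the top 10% of signals, with a median signal of 1032. The family takes in the peroxisomal carrier Slc25a17. Of 23 genes for nucleosides, nucleotide sugars, vitamins and choline, 15 were tested, with a median of 463, and of 16 metal ion genes 11 were tested, with a median of 276. The 22 genes for organic ions, bile acids and fatty acids held 9 tested genes and the 32 for amino acids and peptides held 15, with medians of 160 and 155, although both classes included some of the brightest carriers. Of 23 genes for inorganic ions and protons 9 were tested, of 12 for sugars and carboxylates 5, and of 3 vesicular and other genes 1. The medians of these last classes were 154, 118 and 12.4.

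**Figure D1:**
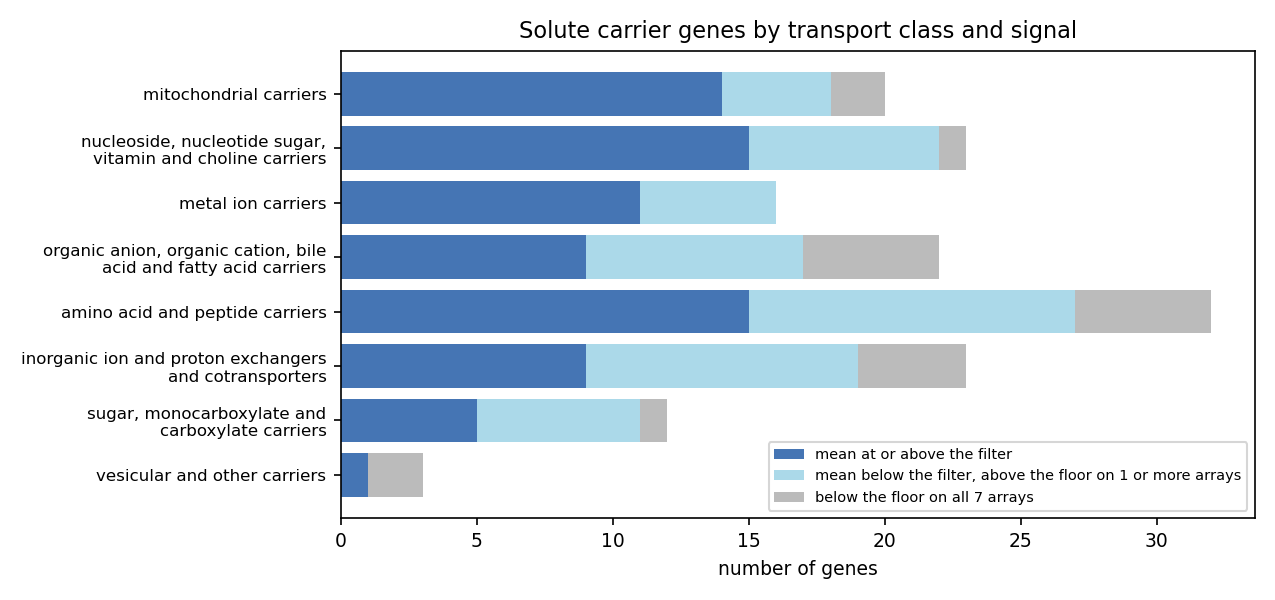
Number of solute carrier genes in each transport class, split by signal. Dark blue marks genes with a mean of at least 200.1 over the 7 arrays, light blue genes below it, and grey genes under the floor on all 7 arrays; mitochondrial carriers have 14 of 20 genes in dark blue, and sugar and carboxylate carriers 5 of 12.

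Among mitochondrial carriers, the brightest was the ornithine carrier of the urea cycle, Slc25a15 (NCBI gene 18408), with a lowest signal of 8246, a median of 10295 and a highest of 11132 (mean 9956 ± 924). Slc25a39, which brings glutathione into the matrix, followed at 5928 ± 682, and Slc25a47, a carrier enriched in liver, at 5354 ± 1451. The citrate carrier Slc25a1, which exports the carbon for fatty acid synthesis, ranged only from 3340 on replicate 3 to 4078 on replicate 1, around a median of 3979. Slc25a20, which carries acylcarnitines into the matrix for oxidation, ranged from 2002 to 2730, and the dicarboxylate carrier Slc25a10 from 1816 to 2561. The peroxisomal carrier Slc25a17 and the oxoglutarate carrier Slc25a11 had 1597 ± 158 and 1108 ± 89.9.

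The adenine nucleotide carriers, which exchange ATP for ADP, were read on probe sets of unlike quality. Slc25a5 had 2131 ± 390 on a probe set whose suffix marks possible cross-hybridisation within a gene family, while its other probe sets had 213 ± 37.7 and 70.6 ± 41.2. Slc25a4, the form of muscle and heart, had a median of 202 and is described below. The phosphate carrier Slc25a3, needed by respiring cells in general, read only 83.4 ± 62.4 and was under the floor on 4 arrays, with 181 on replicate 6 and 168 on replicate 7. For such a gene, a low signal on 1 probe set does not establish a low transcript level.

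Among amino acid carriers, Slc38a4, a sodium-coupled carrier of neutral amino acids (NCBI gene 69354), had the highest signal of all 151 genes. Its values were 10671, 10387, 13081, 9822, 11006, 12266 and 10895 on replicates 1, 2, 3, 4, 6, 7 and 8, so replicate 3 was highest and replicate 4 lowest by a narrow margin. Slc6a13, which takes up GABA and taurine, had 3865 ± 370, and Slc3a2, the heavy chain shared by several heteromeric exchangers, 1715 ± 225. Its light chain partner Slc7a5 had 551 ± 63.4. The glycine carrier Slc6a9, the taurine carrier Slc6a6 and the betaine carrier Slc6a12 had 1418 ± 170, 1325 ± 233 and 967 ± 74.2. The SD of Slc6a9 came from replicate 6, at 1801 against 1321 to 1383, and its log2 SD was 0.16, or 0.02 without that array. In contrast, the cystine exchanger Slc7a11, the cationic carrier Slc7a1 and the creatine carrier Slc6a8 lay below the floor on all 7 arrays.

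Among carriers of organic ions and fatty acids, Slc27a5 and Slc27a2 led. Slc27a5, which joins bile acids to coenzyme A before their conjugation (NCBI gene 26459), lay between 6977 (replicate 6) and 8207 (replicate 2), with a median of 7988. Slc27a2, an acyl-CoA synthetase for very long chains, lay between 5748 (replicate 6) and 7909 (replicate 3), around 6165. Slc22a30 and Slc22a18 had 2871 ± 329 and 2637 ± 380, the former on a probe set whose suffix marks an incomplete set of probes. Slc27a1, the form of muscle and fat, was below the floor on 6 of 7 arrays and Slc27a3 on all 7. Of the 3 Slco genes measured here none was tested, and the highest, Slco3a1, had 118 ± 40.0.

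Among metal carriers, the copper importer Slc31a1 had 2948 ± 383, and its second probe set had 2166 ± 114. The 2 probe sets of the zinc importer Slc39a4 had means of 1346 ± 184 and 1323 ± 149, and their r across the 7 arrays was 0.0350 (exact permutation p = 0.941, adjusted over 11 such pairs, 0.941; rho = -0.0714, exact permutation p = 0.906, adjusted 0.906; r = -0.369 without the 2 farthest arrays). Slc39a1 and Slc39a7, further zinc carriers, had 953 ± 143 and 764 ± 103. Slc30a3, known as the zinc carrier of synaptic vesicles, read 1973 ± 258 on one probe set and 31.6 ± 11.3 on the other. The zinc exporter Slc30a1 had 137 ± 30.4 and was not tested.

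Among the nucleoside, sugar nucleotide and vitamin carriers, the equilibrative nucleoside carrier Slc29a1 ranged from 3409 on replicate 3 to 5217 on replicate 1, around 4133. Its other tested probe set had only 277 ± 67.5 and was highest on replicate 6, at 377. Slc35d1, which supplies UDP-glucuronic acid to the endoplasmic reticulum, had 2593 ± 117, and Slc66a2 had 1739.9 ± 140.3. The ascorbate carrier Slc23a2 had 749 ± 70.7 and the proton-coupled folate carrier Slc46a1 542 ± 47.9. Among ion carriers the potassium-chloride cotransporter Slc12a7 had 1487 ± 123 and the sulfate carrier Slc26a1 1419.7 ± 106.9, while the scaffold Slc9a3r1 had 5758 ± 403. Among sugar and carboxylate carriers the brightest were Slc2a8, an intracellular glucose carrier, at 725 ± 48.4, the monocarboxylate carrier Slc16a7 at 678 ± 71.2 and Slc50a1 at 600.2 ± 64.0. Vesicular carriers of neurotransmitters, Slc32a1 and Slc18a3, were below the floor on all arrays, and only the phosphate and urate carrier Slc17a1 was tested, at 252 ± 42.0.

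**Figure D2:**
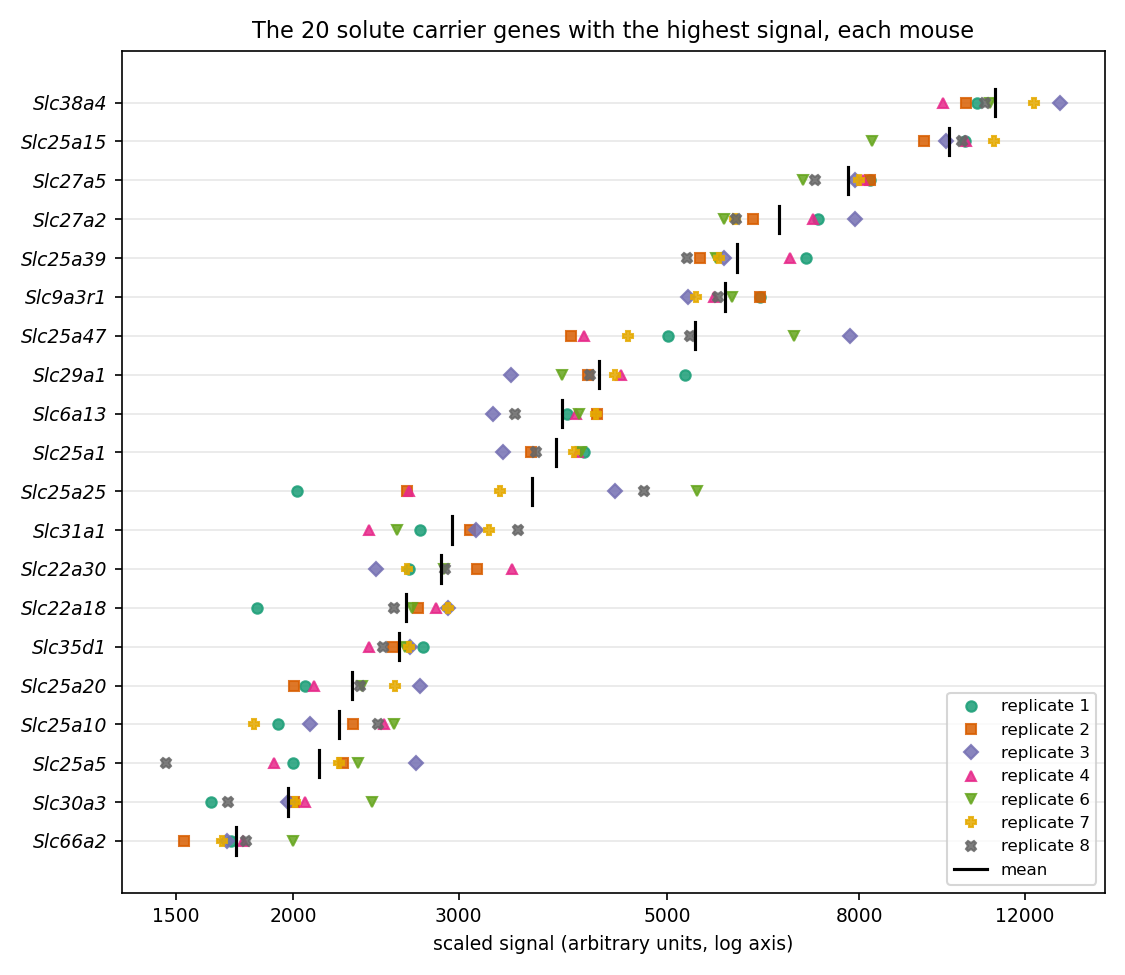
Scaled signal (log axis) of the 20 solute carrier genes with the highest mean, 1 symbol per mouse, with a black bar at the mean. Slc38a4 leads at a mean of 11161; Slc25a47 and Slc25a25 have the widest scatter among the 20, and Slc35d1, at 2405 to 2750, the narrowest.

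Most carriers differed little between mice. On the log2 scale the 79 tested carriers had a median SD of 0.19, against 0.18 for all 4481 tested genes, and the median ratio of the highest to the lowest array was 1.48, against 1.44. Of the 79, 60 had an SD under 0.3 (75.9%, against 82.7% of all). The steadiest were Slc35d1, Slc39a9, Slc38a10, Slc2a8 and Slc27a5, with log2 SDs of 0.07, 0.09, 0.09, 0.09 and 0.10. Without replicate 4 that of Slc38a10 was 0.06, and without replicate 7 that of Slc39a9 was 0.05. Averaging all probe sets of Slc38a10 gave 0.05, as its second probe set lay under the floor on all 7 arrays.

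Each gene's variance was set against the variance expected at its level with limma, with a one-sided test for excess spread. None of the 79 passed with Benjamini-Hochberg adjustment over all 4481 genes (0% of all genes passed), and 6 had an unadjusted p under 0.05, or 7.59%, against 6.72% of all genes tested, so the share among carriers was near the background. With 7 arrays and adjustment over 4481 genes, this test misses all but very large excess spread. The lack of calls therefore does not show that the carriers varied alike. These 6 were Slc7a2, Slc25a25, Slc25a4, Slc25a47, Slc6a2 and Slc4a4, and their adjusted p from limma ran from 0.354 to 0.714.

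**Figure D3:**
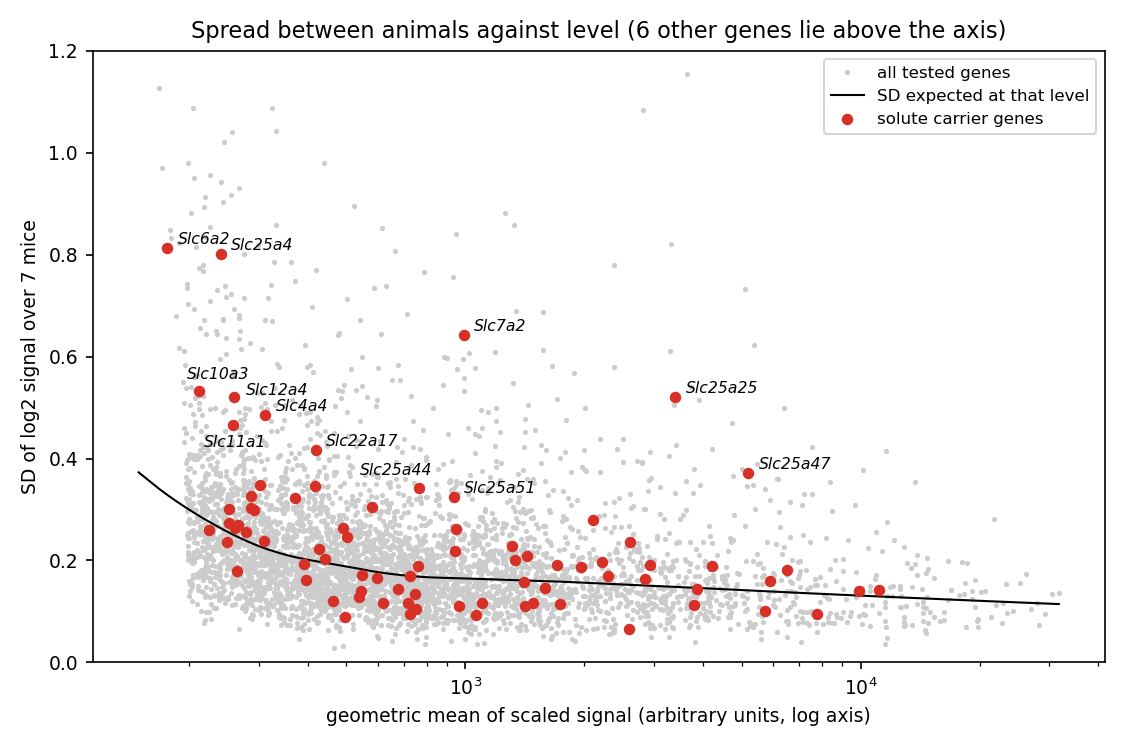
SD of log2 signal over the 7 mice against the geometric mean of the scaled signal (log axis), with tested solute carrier genes in red, all tested genes in grey and the SD expected at each level as a black line. The 12 carriers with the largest SD for their level are named; 6 other genes lie above the axis, none of them a solute carrier.

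Slc7a2, which takes up arginine and other cationic amino acids (NCBI gene 11988), had the largest SD for its level. Its signals were 1077, 1458, 1261, 399.6, 865, 1421 and 967 on replicates 1, 2, 3, 4, 6, 7 and 8. Replicate 4 was lowest and the other 6 lay within a narrower band. The log2 SD was 0.64 against 0.16 expected (limma adjusted p = 0.354, and 0.256 to 0.901 over the alternatives), and 0.31 without replicate 4.

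Replicate 4 was the lowest array for 17 of the 79 carriers (21.5%, against 14.9% of all tested genes) and replicate 6 the highest for 20 (25.3%, against 16.9%). Replicate 4 was lowest for Slc11a1, a metal ion carrier of the macrophage phagosome. Slc11a1 had 249, 259.8, 221, 142, 306, 319 and 392 in the same order. Its log2 SD was 0.47 over 7 arrays and 0.30 when replicate 4 was left out. Slc7a7, another cationic amino acid carrier and below the filter, had 38.9 on replicate 4 against 114 to 175 on the others. The macrophage marker list had 9 of 9 genes on the array, none below the floor on all arrays. It summed to 5961 on replicate 4, 5933 on replicate 3 and 6097 to 7975 on the others. Marco was under the floor on 6 of the 7 arrays. Of the 9 markers 1, C1qa, was lowest on replicate 4. The part of macrophage content in these values was not tested.

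Slc25a25, a calcium-regulated carrier of ATP-magnesium and phosphate (NCBI gene 227731), was high in 3 mice. Its signals were 2017, 2642, 2657 and 3322 on replicates 1, 2, 4 and 7 and 4398, 5383 and 4726 on replicates 3, 6 and 8. These sets of arrays were chosen after the values were seen, so their lack of overlap for Slc25a25 is no finding. Its log2 SD was 0.52 against 0.15 expected (limma adjusted p = 0.366, and 0.344 to 0.896 over the alternatives). Slc25a47 had 5004, 3944, 4072 and 4537 on replicates 1, 2, 4 and 7 and 7819, 6816 and 5284 on replicates 3, 6 and 8, with the same arrays on top, though replicate 8 was close to replicate 1. Its log2 SD was 0.37 against 0.14 expected (limma adjusted p = 0.532, and 0.445 to 0.964 over the alternatives).

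The carriers Slc38a2, Slc20a1 and Slc22a5 had the same highest arrays. Slc38a2, a neutral amino acid carrier induced by amino acid shortage, was read on a single probe set. Its others had means under the floor, at 43.1, 23.4 and 6.5. Slc38a2 had 775 to 924 on replicates 1, 2, 4 and 7 and 1089 to 1174 on replicates 3, 6 and 8. Slc20a1, a sodium-phosphate cotransporter, had 282 to 371 and 433 to 481 on the same arrays, and the carnitine carrier Slc22a5 had 215 to 289 and 362 to 423. All 5 kept this order with quantile normalization and with median centring. The pattern was noticed in the values and the arrays were not labelled apart, so it has no test. It was shown by 5 of the 79 carriers (6.33%) and by 2.97% of all tested genes. The 5 include carriers in whose values it was noticed, so the share is no support for a pattern. Replicate 3 lay in the set of arrays with the higher spike-in signal and replicates 6 and 8 in the other, and the part of the array set in this order was not tested.

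The sequences upstream of these genes are shown because their signals shared an order across mice. The 250 bases before a RefSeq transcript start (GRCm38.p6, 122 of the 151 genes have an entry) were searched on both strands for the cAMP response motif core TGACG, its full palindromic site TGACGTCA, which holds 2 overlapping copies of that core, and the nuclear receptor core AGGTCA. These stand in 17.8%, 1.55% and 14.0% of all 32851 windows of that length. Matches are in capitals, and each sequence reads 5′ to 3′ on the strand of the gene.
Slc25a25, start 3, chr2:32424067-32424316, minus strand: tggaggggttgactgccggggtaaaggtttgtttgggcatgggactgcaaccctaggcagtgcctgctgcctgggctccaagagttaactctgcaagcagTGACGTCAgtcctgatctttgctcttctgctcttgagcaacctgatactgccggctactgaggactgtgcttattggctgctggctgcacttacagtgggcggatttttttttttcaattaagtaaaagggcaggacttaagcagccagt
Slc25a47, chr12:108850879-108851128, plus strand: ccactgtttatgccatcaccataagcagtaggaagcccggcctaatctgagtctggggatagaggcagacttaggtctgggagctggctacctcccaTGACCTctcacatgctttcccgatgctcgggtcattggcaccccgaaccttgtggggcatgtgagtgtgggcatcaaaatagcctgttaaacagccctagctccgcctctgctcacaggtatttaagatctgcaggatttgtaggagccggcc
Slc38a2, chr15:96699729-96699978, minus strand: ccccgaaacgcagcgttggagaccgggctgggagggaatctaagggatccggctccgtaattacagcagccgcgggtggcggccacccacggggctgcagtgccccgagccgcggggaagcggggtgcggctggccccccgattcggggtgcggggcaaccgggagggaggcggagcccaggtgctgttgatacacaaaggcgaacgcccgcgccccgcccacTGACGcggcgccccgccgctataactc
Slc22a5, chr11:53891704-53891953, minus strand: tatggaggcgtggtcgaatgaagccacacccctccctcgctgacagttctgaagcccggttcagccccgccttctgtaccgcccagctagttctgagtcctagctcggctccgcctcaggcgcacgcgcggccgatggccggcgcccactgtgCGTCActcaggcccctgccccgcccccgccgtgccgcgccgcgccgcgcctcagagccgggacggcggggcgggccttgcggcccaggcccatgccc
The full site stood before start 3 of the 3 listed for Slc25a25, and no match stood before its other starts. Slc38a2 and Slc22a5 had 1 cAMP core each, and Slc25a47 had 1 nuclear receptor core. The first of the 2 listed starts of Slc20a1 had 1 match to each core, and the second had 2 cAMP cores and 1 nuclear receptor core. A match is a description of these letters and not a bound site.

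**Figure D4:**
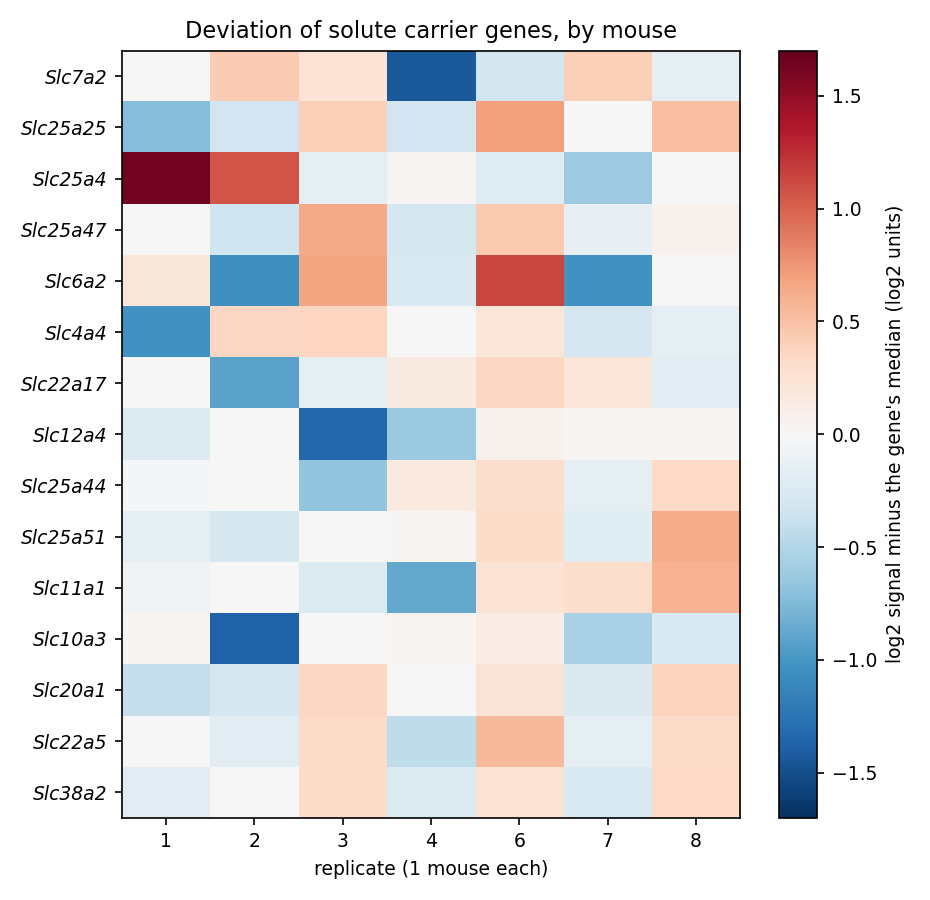
Log2 signal minus each gene's median for 15 solute carrier genes (rows) in the 7 mice (columns), red above and blue below the median. The first 12 rows are the genes with the largest SD for their level and the last 3 share the order of Slc25a25; Slc7a2 is blue on replicate 4, Slc25a4 red on replicates 1 and 2, and Slc25a25, Slc25a47, Slc20a1, Slc22a5 and Slc38a2 red on replicates 3, 6 and 8.

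Slc25a4 and Slc2a4 were highest in the same pair of mice; they were singled out after their values were seen. Slc25a4 (NCBI gene 11739) read 630.2 and 425 in the first pair of mice, replicates 1 and 2, and 182, 208, 174, 132 and 202 in replicates 3, 4, 6, 7 and 8. Its log2 SD was 0.80 against 0.26 expected (limma adjusted p = 0.457, and 0.379 to 0.896 over the alternatives). Its mean without replicates 1 and 2 was 179.6, so it passed the filter only through them. The glucose carrier Slc2a4, below the filter, had 289.6 and 227 on replicates 1 and 2 and 124 and 115 on replicates 4 and 8. On replicates 3, 6 and 7 it had 43.9, 25.5 and 26.1, which lie under the floor. The other probe set of Slc2a4 had 48.9 ± 16.6 and was under the floor on 3 arrays, so the high signals on replicates 1 and 2 rest on 1 probe set. On the probe sets read, replicates 1 and 2 were highest for both carriers, which were singled out by these values. Slc27a1, also a gene of muscle, read 38.5 and 50.1 there and 22.8 to 45.8 elsewhere. It was under the floor on 6 of 7 arrays, so it shows no level to compare.

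Markers of skeletal muscle and 1 of fat moved with these values. All 10 of 10 listed markers were on the array, none was under the floor on all arrays, and 7 of them had replicates 1 and 2 as the highest arrays. Summed, they gave 12160 for replicate 1 and 6774 for replicate 2, and between 2493 and 2717 elsewhere. The muscle actin Acta1 had 5991 and 2034 against 10.5 to 100.4, while the creatine kinase Ckm and the myosin Myh4 were lowest on replicate 1, at 144 and 103. The 3′ to 5′ ratio of the beta-actin control was also lowest on replicates 1 and 2, at 1.34 and 1.31, against 1.56 to 1.78, while that of Gapdh was 0.907 and 0.866 there and 0.788 to 0.899 elsewhere. Among 4 adipocyte markers on the array, adiponectin (Adipoq) was also highest on replicates 1 and 2, at 242 and 134 against 47.6 to 110.7, but Fabp4 and Lep were not, and Cidec was under the floor on all arrays; the list summed to 1574 and 1502 there and to 1422 to 2157 elsewhere. The part of these markers and ratios in the signals of Slc25a4 and Slc2a4 was not tested. Of the 79 tested carriers 6 had replicates 1 and 2 as the highest arrays (7.59%, against 4.86% of all tested genes). The 6 include Slc25a4, which was singled out by these values and passed the filter only through them, so the share is no support for a pattern. The other 5 were Slc12a2, Slc27a5, Slc30a9, Slc6a6 and Slc9a3r1. The fructose carrier Slc2a5, below the filter, had 245, 153 and 126 on replicates 1, 2 and 7 and was under the floor on the other 4.

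**Figure D5:**
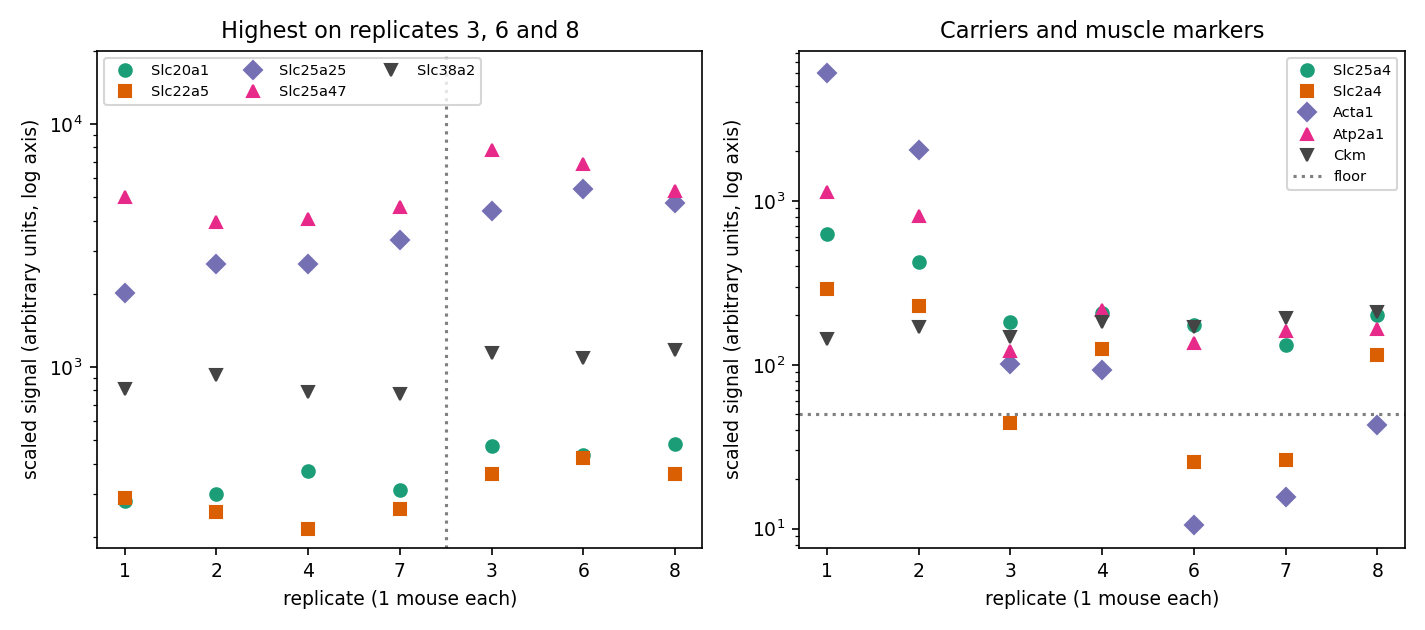
Scaled signal (log axes) by mouse. Left, the 5 carriers with their highest values on replicates 3, 6 and 8, which stand right of the dotted line; right, the carriers Slc25a4 and Slc2a4 beside the muscle markers Acta1, Atp2a1 and Ckm, with the floor of 50.04 dotted. Slc25a4 has 630.2 and 425 on replicates 1 and 2 and at most 208 elsewhere, and Ckm does not follow it.

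For most of the other carriers with wide spread, the log2 SD fell when 1 array was left out. An SD tends to fall once its most extreme array is removed. None of these carriers is among those flagged below for a single far array. The noradrenaline carrier Slc6a2 ranged from 88.5 on replicate 2 and 89.0 on replicate 7 to 399 on replicate 6 (log2 SD 0.81, limma adjusted p = 0.600, and 0.472 to 0.896 over the alternatives), close to the filter at a mean of 201. Its log2 SD was 0.75 to 0.89 when replicate 2, 4, 7 or 8 was left out, but without replicate 1, 3 or 6 its mean fell under the filter, to 168 at the lowest, and it was not tested there. With both its probe sets averaged the log2 SD was 0.43. The sodium-bicarbonate cotransporter Slc4a4 read 162 in replicate 1, with 271 to 422 elsewhere (log2 SD 0.49, limma adjusted p = 0.714, and 0.619 to 0.993 over the alternatives), and its log2 SD was 0.27 without replicate 1. The chloride cotransporter Slc12a4 was lowest on replicate 3, at 126 against 206 to 335, and Slc25a44, a carrier of branched-chain amino acids, was lowest on the same array, at 482 against 691 to 971. Without replicate 3 their log2 SDs were 0.27 and 0.20, against 0.52 and 0.34. Slc22a17 and Slc10a3 were lowest on replicate 2, at 234 and 99.8 against 389 to 563 and 177 to 282, with log2 SDs of 0.21 and 0.25 without it, against 0.42 and 0.53. Slc25a51, the carrier of NAD into mitochondria, was highest on replicate 8, at 1405 against 747 to 1122, with a log2 SD of 0.32, or 0.21 without that array.

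Probe sets of the same gene were compared across mice. Of 28 solute carrier genes with several probe sets, 11 had 2 tested probe sets, and Pearson's r between them across the 7 arrays ran from -0.796 for Slc6a6 to 0.587 for Slc25a51. For Slc6a6, the exact two-sided permutation p was 0.0494 (adjusted over 11 pairs, 0.543), with rho = -0.536 (exact permutation p = 0.236, adjusted 0.622) and r = -0.157 without the 2 arrays farthest from the median. For Slc25a51, the exact permutation p was 0.171 (adjusted 0.640), with rho = 0.536 (exact permutation p = 0.236, adjusted 0.622) and r = 0.248 without the 2 farthest arrays. No pair passed the adjustment. In 5 genes, Slc2a8, Slc30a3, Slc38a10, Slc38a2 and Slc44a4, one probe set was tested while another had a mean under the floor, at 17.6, 31.6 and 18.3 for the first 3.

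Carriers were also set against a gene of the same pathway. Of 12 such pairs 6 could be tested, each with exact two-sided permutation tests over 5040 pairings, and none passed the adjustment over the 6. The citrate carrier Slc25a1 had r = 0.784 with Acly, which splits the exported citrate (exact permutation p = 0.0264, adjusted p = 0.158), but rho = 0.536 (exact permutation p = 0.236, adjusted 0.80) and r = 0.508 without the 2 arrays farthest from the median of Acly. With the fatty acid synthase Fasn it had r = 0.453 (exact permutation p = 0.313, adjusted 0.626), rho = 0.0714 (exact permutation p = 0.906, adjusted 0.906) and r = 0.0813 without the 2 farthest. On replicate 3, Slc25a1, Acly and Fasn were all at their lowest, at 3340, 2641 and 2006. The other tested probe set of Slc25a1 was not lowest there. It read 1321 on replicate 3 and 1263, 1269 and 1303 on replicates 2, 7 and 8. For Slc25a20 with Cpt2, Slc25a15 with Cps1, Slc3a2 with Slc7a5 and Slc11a1 with the macrophage marker Cd68, r was -0.480, 0.184, -0.0741 and 0.249, with exact permutation p of 0.275, 0.683, 0.892 and 0.581 (adjusted 0.626, 0.819, 0.892 and 0.819), rho was -0.500, 0.143, -0.179 and 0.214 (exact permutation p of 0.267, 0.783, 0.713 and 0.662, adjusted 0.80, 0.906, 0.906 and 0.906), and without the 2 farthest arrays r was 0.633, 0.624, 0.0710 and 0.246. The arrays fell into separate clusters for Acta1, so its relation with Slc25a4 was not tested, and Slc30a1, Slc4a1 and Slc2a4 were below the filter. Slc4a1, the red cell anion exchanger, ranged from 100.6 on replicate 8 to 217 on replicate 3, where the globin Hba-a1 was lowest, at 7133.

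Transporters outside the solute carriers were measured on the same arrays. Of 66 listed pumps, channels and ABC transporters 44 were on the array and 26 were tested, with a median log2 SD of 0.18, and 1, the mitochondrial ABC transporter Abcb8, had an unadjusted p under 0.05 (limma adjusted p = 0.600). The brightest of them were the ABC transporter Abcc3 at 7071 ± 722, the peroxisomal Abcd3 at 4101 ± 435, the glycerol channel Aqp9 at 3473 ± 401, the phospholipid exporter Abcb4 at 3024 ± 396 and Aqp8 at 1888 ± 403.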

How the data were processed

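The authors deposited linear intensities, with 1 value for each probe set of the 1-colour Affymetrix U74Av2 arrays. Per the labels a GeneArray scanner was used; for the software and the scaling target, nothing is stated in the labels. The deposited intensities had trimmed means (2% at each end) near 500.4 on every array. Platform annotation gave 10833 of 12488 probe sets 1 gene symbol (66 others are controls), and 10817 matched RefSeq gene identifiers with 0 symbols changed.

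Arrays were scaled to the trimmed mean, floored at 0.1 of it and log2 transformed; a gene was tested if its mean reached 0.4 of it. An intercept-only limma 3.58.1 fit (R 4.3.3) set each gene's variance against a robust prior following the level (prior df 5.61) by a one-sided F test, adjusted by Benjamini-Hochberg, threshold 0.05. The test was run on simulated data for 4481 genes with 200 changed, and it recovered most of the 200 only at the largest excess spread tried. Correlations used Python 3.11.15, numpy 2.4.6 and scipy 1.17.1; tables and plots used pandas 2.3.3 and matplotlib 3.10.9.

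Named genes are the 20 brightest, the 3 brightest per class, those with an unadjusted p under 0.05 or the 12 largest SDs for their level, the 5 smallest SDs, pathway pairs, genes with several tested probe sets, and the 5 brightest outside transporters; others, and the arrays 3, 6 and 8 pattern, were chosen after their values were seen. Members, lists and tests were chosen with earlier results of these data known. Marker lists for erythroid (5 of 8 genes on the array, summed signal 10243 to 17253), endothelial (7 of 8, 3154 to 4942), lymphocyte (7 of 8, 1067 to 1480.5) and adipocyte cells (4 of 6, 1422 to 2157) were also summed per array.

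Alternatives were quantile normalization, median centring, the values without scaling, an offset or floors of 0.05 and 0.2, filters of 0.2, 0.8 or none, averaged probe sets, other priors, the array set as a term (sets split by spike-in signal: replicates 1 to 4 and 6 to 8), and leaving out arrays.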

Additional observations from a re-analysis of the deposited data

Results flagged for a closer look

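In all, 82 solute carrier genes were examined for a single array far from the other 6, by Dixon's ratio at its 95% critical value. It flagged 6, where chance flags about 1 in 20. No share over all genes is given beside it, so the 6 describe single values and are not a result about carriers. The widest gap for its range was that of the glycine carrier Slc6a9, at 1801 on replicate 6 against 1321 to 1383 on the others. The glutamate carrier Slc1a2 was highest on the same replicate, at 675 against 332 to 470.0. Slc22a18 was lowest on replicate 1, at 1829 against 2560 to 2923. The taurine carrier Slc6a6 was highest on replicate 1, at 1820.1 against 1143 to 1399, while its second probe set was lowest there, at 129.9. The monocarboxylate carrier Slc16a7 was highest on replicate 2, at 825 against 610.1 to 690, and Slc35c2 on replicate 3, at 656 against 489.6 to 558. With these arrays left out, the log2 SDs of Slc6a9, Slc1a2, Slc22a18, Slc6a6, Slc16a7 and Slc35c2 were 0.02, 0.17, 0.08, 0.10, 0.07 and 0.08, against 0.16, 0.35, 0.24, 0.23, 0.14 and 0.14.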

How the results depend on the processing

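None of the solute carrier genes passed the adjusted spread test under any of the 21 alternatives. As the main test misses all but very large excess spread, this does not show that the carriers varied alike. The number with an unadjusted p under 0.05 was 6; it was 3 of 57 with the filter at 0.8 (fewer genes tested) and 15 of 151 without a filter, where 0 of the 6 were among them and 10.9% of all genes had such a p. It ran from 4 to 9 when each replicate was left out, lowest without replicate 3 (5.13%, against 6.42% of all genes) and highest without replicate 4 (11.4%, against 6.67%), and was 8 without replicates 1 and 2, which was added after seeing the data. With the array set as a term all 6 kept an unadjusted p under 0.05. With array set means removed, r turned negative for Slc11a1 with Cd68 (-0.384) and for the Slc39a4 probe sets (-0.0972), and positive for those of Slc17a1 (0.374); the cause was not tested. Over the 79 tested carriers, the log2 mean moved by less than 1 SD in 1157 of 1181 comparisons and the log2 SD by at most 1.5 times in 1139. No paired analysis was possible because there is 1 group. Signal near background limits the dimmer carriers.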
